A study of Danio rerio with 32 samples.

Results

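The genes described here are 54 of the 15710 genes in a table of expression values from whole zebrafish embryos, and they were selected on their own expression values, high in valproic acid embryos and low in folic acid and control embryos. A gene was taken if its mean log2 value was at least 5 over the valproic acid libraries, below 4 over the folic acid libraries and below 3.5 over the control libraries. The values of these 3 groups chose the genes, so those values are given as a description, and the retinoic acid libraries had no part in the choice. Of the 54 genes, 42 carry a gene name, 9 carry a clone name and 3 carry no name in the table of identifiers.

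The study holds 32 libraries in 4 groups of 8, made from polyadenylated RNA of whole embryos that were under exposure between 3 and 7 h of development (4 h in all), a span in which gastrulation begins. The groups are valproic acid, an antiepileptic drug, all-trans retinoic acid, a signalling molecule made from vitamin A, folic acid, a vitamin that the series uses as a negative control, and a control without any of these compounds. Embryos of all 4 groups were kept in Dutch standard water with 0.01% DMSO. The labels give no strain, no doses and no account of how the 8 libraries of a group came about, and the spread behind each p-value may therefore be technical.

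Valproic acid is known to inhibit histone deacetylases, the enzymes that remove acetyl groups from histone tails. Acetylated histones are typical of open chromatin at active promoters, and inhibitors of these enzymes are known to raise transcripts of some genes that a cell normally keeps low. Valproic acid is also a known teratogen, with the neural tube among its targets in vertebrates.

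The labelled stage was checked against 14 genes of the early embryo, among them tbxta, a mesoderm regulator, and sox32, which specifies endoderm. All 14 were measured, and their control means lay between 8.54 and 14.17, against a median of 7.83 over all genes. Such levels show that these genes were expressed but cannot fix the hour of development. The deposited values have nearly the same distribution in every library, so library totals cannot be read from them. Low values fall on steps, and the step number of a gene within its library serves here as an estimate of its reads, with 0 for the library's lowest value. The estimate at the lower-quartile gene, a measure of relative depth, ran from 18 to 52 reads in valproic acid, 22 to 34 in retinoic acid, 12 to 45 in folic acid and 19 to 47 in control libraries, so depth overlapped between the groups.

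The 54 genes were low rather than absent outside the valproic acid group. The median gene of the 54 lay between 5.16 and 5.55 in each valproic acid library, between 2.48 and 3.82 in each retinoic acid library, between 2.97 and 3.49 in each folic acid library and between 2.79 and 3.32 in each control library. Among the 432 values of a group (54 genes in 8 libraries), 308 (71.3%) were 5 or more in valproic acid, 28 (6.48%) in retinoic acid, 7 (1.62%) in folic acid and 7 (1.62%) in control. Every valproic acid library thus lay above every library of the other groups by its median gene. The choice of genes favours this order, for retinoic acid through the high valproic acid side only. The lowest value of the library was met 0 times in valproic acid, 16 times in retinoic acid, 29 times in folic acid and 16 times in control libraries.

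**Figure D1:**
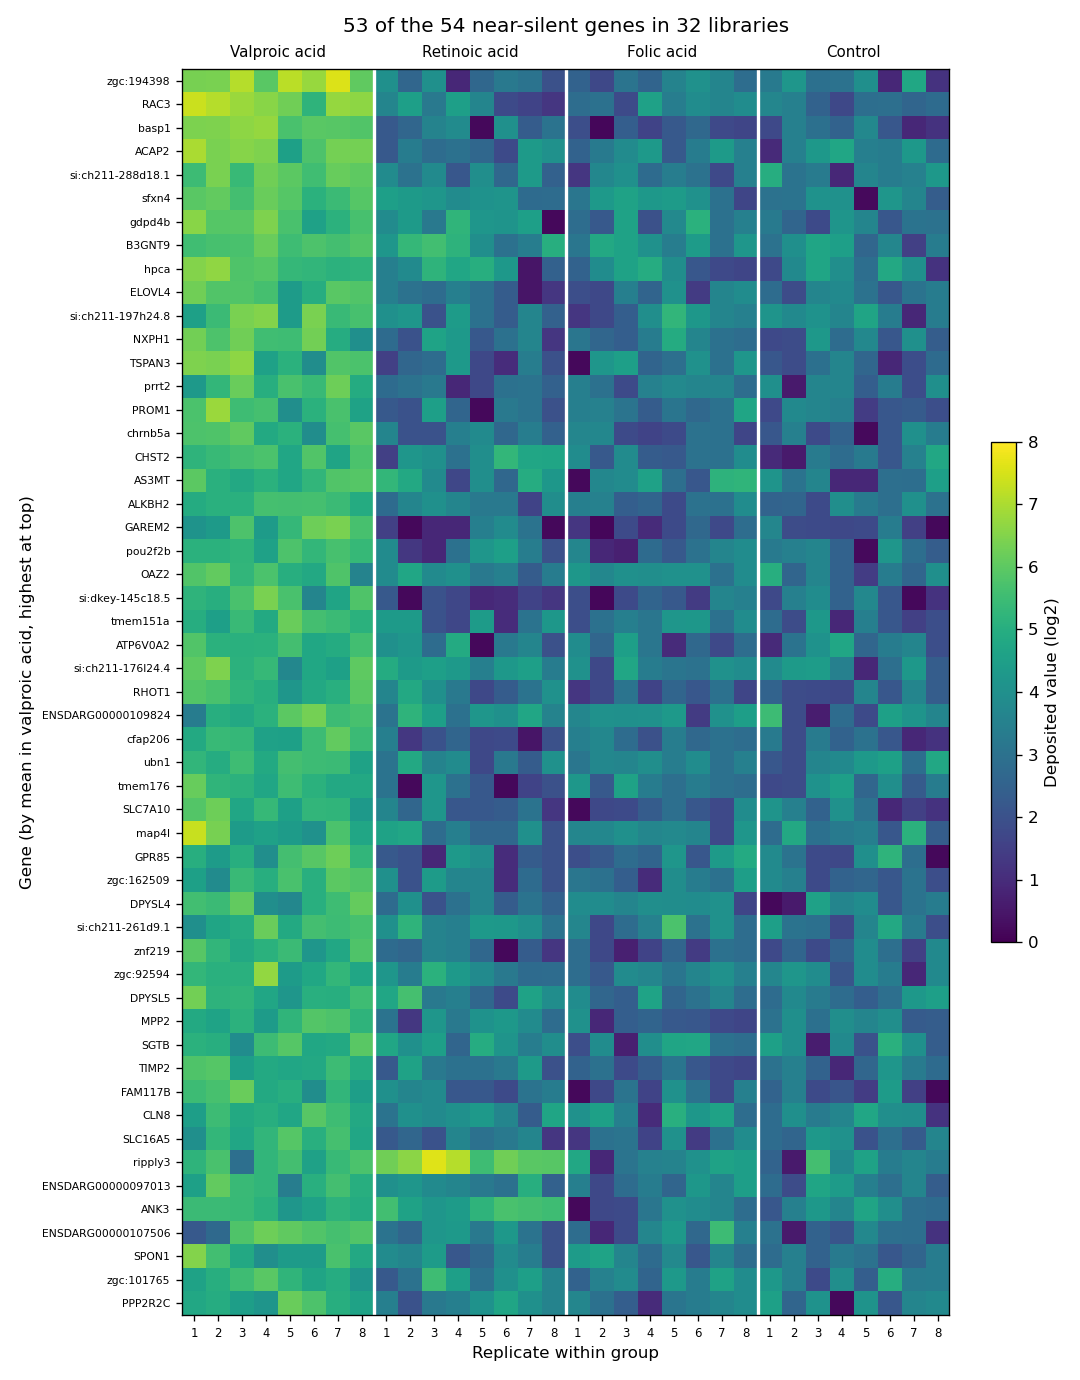
Heat map of the deposited log2 value (colour, 0 to 8) of 53 of the 54 genes (rows, ordered by their mean in valproic acid) in the 32 libraries (columns, 8 per group). Over all 54 genes, 308 values of 5 or more lie in valproic acid, 28 in retinoic acid, 7 in folic acid and 7 in control.

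In estimated reads, the median gene of the 54 had 12.5 to 45 reads in the valproic acid libraries, 3 to 7 in the retinoic acid libraries, 1 to 8 in the folic acid libraries and 2 to 9 in the control libraries. Divided by the reads at the lower-quartile gene of the same library, this was 0.69 to 0.90 in valproic acid, 0.10 to 0.23 in retinoic acid, 0.08 to 0.19 in folic acid and 0.11 to 0.19 in control libraries. The valproic acid libraries lay above the others over the depths that they covered (18 to 52 reads at the lower-quartile gene). None of them was as shallow as folic acid replicates 7 and 8, with 12 and 13 reads. The choice of genes favours this order too. Summed over 8 libraries, a gene had 173 to 572 estimated reads in valproic acid and 22 to 76 in control. These are small numbers. A log2 value of 3.5 corresponded to 2 to 12 reads depending on the library, a value of 4 to 3 to 17 reads and a value of 5 to 7 to 33 reads, so a single low value rests on a handful of reads. The median SD of a gene over 8 libraries was 0.646 in valproic acid, 0.928 in retinoic acid, 0.9 in folic acid and 1.1 in control.

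**Figure D2:**
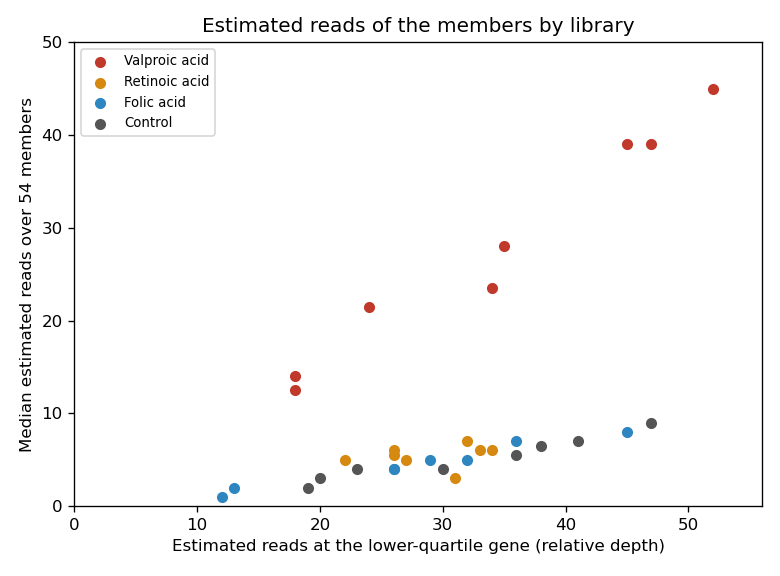
Median estimated reads over the 54 genes (vertical axis) against the estimated reads at the lower-quartile gene, a measure of relative depth (horizontal axis), with 1 point per library coloured by group. Valproic acid libraries run from 12.5 to 45 reads and libraries of the other 3 groups from 1 to 9 reads over overlapping depths.

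Measured as the difference between the group means, valproic acid minus control ran from 1.55 to 3.87 on the log2 scale, with a median of 2.39, or 5.26-fold, and an SE of 0.36 to 0.61. The same difference had a median of -0.01 over all 15710 genes. In the limma fit across the whole table, all 54 genes were called higher in valproic acid than in control at an adjusted p under 0.05, as were 15.9% of all genes, while 15.4% of all genes and 0 of the 54 were called lower. The choice used this contrast, so nothing is read from that count. For 28 of the 54 genes every valproic acid library lay above every control library, an outcome met by 4.04% of all genes, and for 16 genes every valproic acid library lay above all 24 other libraries, as it did for 2.02% of all genes. The choice set the valproic acid, folic acid and control sides, so nothing is read from these counts either. In whole-embryo RNA, more cells of a type and more RNA per cell cannot be told apart.

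By their known roles, a grouping made after the values were seen, 15 of the named genes belong to neurons, 9 to membranes, organelles and transport, 7 to enzymes and the extracellular matrix, 6 to transcription and DNA, and 5 to none of these. These roles were not assigned over all genes, so an excess of neuronal genes was not tested by the count of 15. In the separate list of neuron and synapse genes described below, 1 of 40 measured genes (basp1) was among those chosen. Neurons differentiate only after these stages. The neuronal genes had differences of 1.55 to 3.87 (median 2.45). Their summed estimated reads were 178 to 544 in valproic acid and 29 to 62 in control. Of the 15, 8 were free of overlap between valproic acid and control, against 4.04% of all genes. The choice set both sides of this comparison, so nothing is read from this count or from those by role below.

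The gene basp1 encodes a membrane protein of nerve growth cones. Its lowest, median and highest values were 5.70, 6.20 and 6.73 in valproic acid, 0.17, 2.84 and 4.01 in retinoic acid, 0.13, 1.84 and 2.69 in folic acid and 0.90, 2.34 and 3.74 in control. The valproic acid libraries lay apart from all others, with 390 estimated reads over the group, against 29 in control. The means were 6.21 ± 0.399 in valproic acid and 2.34 ± 1.04 in control (SD, n = 8 each), a difference of 3.87 (SE 0.47), or 14.6-fold, the largest of the 54.

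RAC3, a small GTPase that shapes the actin cytoskeleton of neurites in mammals, had values of 5.20, 6.68 and 7.37 in valproic acid (lowest, median and highest, here and below), 1.26, 3.43 and 4.52 in retinoic acid, 1.79, 3.51 and 4.57 in folic acid and 1.73, 2.84 and 3.66 in control. No valproic acid library overlapped any other. The means were 6.58 ± 0.655 in valproic acid and 2.82 ± 0.598 in control, which differed by 3.76 (SE 0.44), or 13.6-fold.

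Genes of synapses and excitable membranes were among the 54. For chrnb5a, a subunit of nicotinic acetylcholine receptors, values were 3.91, 5.69 and 6.04 in valproic acid, 2.03, 3.03 and 3.82 in retinoic acid, 1.62, 2.38 and 3.71 in folic acid and 0.20, 2.34 and 4.02 in control. The lowest valproic acid library lay within the control range, and the difference was 2.92 (SE 0.47), or 7.57-fold. NXPH1, which encodes a secreted ligand of the synaptic neurexins, had 3.99, 5.66 and 6.30 in valproic acid, 1.26, 2.88 and 4.65 in retinoic acid, 2.40, 3.06 and 4.92 in folic acid and 1.75, 2.60 and 4.28 in control. Here too the groups touched at a single valproic acid library, beside a difference of 2.71 (SE 0.48).

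Values of prrt2, a presynaptic protein involved in vesicle release, were 4.31, 5.37 and 6.24 in valproic acid, 0.90, 2.88 and 3.23 in retinoic acid, 1.79, 3.49 and 3.78 in folic acid and 0.59, 3.5 and 3.99 in control. All 8 valproic acid libraries lay above the other 24, with a difference from control of 2.45 (SE 0.44). The calcium sensor gene hpca, which encodes the neuronal protein hippocalcin, had 5.14, 5.56 and 6.68 in valproic acid, 0.44, 4.04 and 5.21 in retinoic acid, 1.67, 3.20 and 4.96 in folic acid and 1.17, 3.86 and 4.84 in control. Valproic acid lay clear of control for hpca but not of retinoic acid, and the difference from control was 2.33 (SE 0.60).

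DPYSL4 and DPYSL5 encode collapsin response mediator proteins, which act on microtubules in growing axons. DPYSL4 had 3.69, 5.49 and 6.11 in valproic acid, 2.03, 2.88 and 4.01 in retinoic acid, 1.67, 3.90 and 4.04 in folic acid and 0.17, 3.22 and 4.57 in control. DPYSL5 had 4.19, 5.12 and 6.30 in valproic acid, 1.79, 3.69 and 5.64 in retinoic acid, 2.40, 2.94 and 4.64 in folic acid and 2.39, 3.12 and 4.51 in control. Both overlapped control at their lowest valproic acid libraries, and the differences were 2.50 (SE 0.52) for DPYSL4 and 1.80 (SE 0.44) for DPYSL5.

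Of the other neuronal genes, SLC7A10, a transporter of small neutral amino acids in the brain, ranged from 4.33 to 6.22 in valproic acid and from 0.90 to 4.14 in control, without overlap (difference 2.59, SE 0.51). MPP2, a scaffold protein of the guanylate kinase family found at synapses, ranged from 4.38 to 5.86 in valproic acid and from 2.30 to 3.98 in control, also without overlap (difference 1.86, SE 0.42). SPON1, the secreted axon guidance protein F-spondin, ranged from 3.94 to 6.51 in valproic acid and from 2.16 to 3.49 in control (difference 2.11, SE 0.41). In these 3 genes valproic acid thus stood apart from control. For SLC7A10 and MPP2 it also lay above the retinoic acid and folic acid libraries. For SPON1 it overlapped them, with values up to 4.38 in retinoic acid and 4.65 in folic acid. GPR85, an orphan receptor of the mammalian brain, and PPP2R2C, a regulatory subunit of protein phosphatase 2A in the brain, overlapped, with 3.94 to 6.22 and 4.18 to 6.18 in valproic acid and 0.17 to 5.21 and 0.17 to 4.56 in control. The membrane protein gene tmem151a differed by 2.90 (SE 0.50) without overlap. ANK3, which encodes ankyrin-G, the organizer of the axon initial segment, is described with the retinoic acid libraries.

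**Figure D3:**
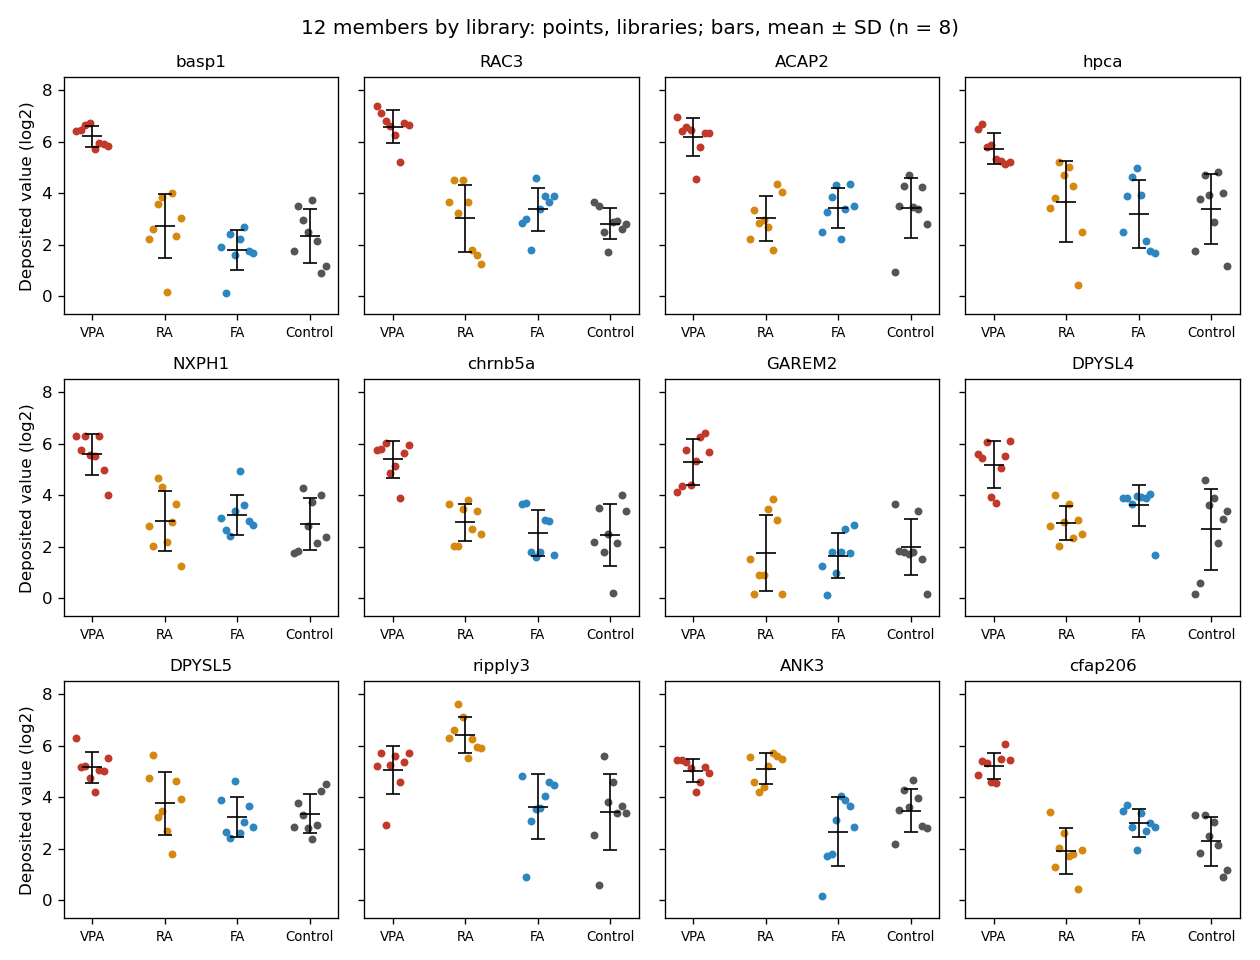
Deposited log2 values of 12 of the genes in 8 libraries per group (points), with the group mean and SD (black bars), for valproic acid (VPA), retinoic acid (RA), folic acid (FA) and control. The valproic acid libraries of basp1 run from 5.70 to 6.73 and its control libraries from 0.90 to 3.74, while ripply3 runs from 5.53 to 7.62 in retinoic acid and ANK3 from 4.21 to 5.70 in retinoic acid.

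The 9 genes of membranes, organelles and transport had differences of 1.66 to 3.22 (median 2.76). Of the 9, 6 were free of overlap with control, against 4.04% of all genes, a count that the choice favours. TSPAN3, a tetraspanin of the cell surface, had 3.91, 5.78 and 6.64 in valproic acid, 1.03, 2.30 and 4.30 in retinoic acid, 0.17, 3.51 and 4.5 in folic acid and 0.90, 2.41 and 3.63 in control. Its difference of 3.22 (SE 0.54), or 9.34-fold, was the largest of these 9. For cfap206, which encodes a protein of motile cilia, the values were 4.55, 5.36 and 6.07 in valproic acid, 0.44, 1.88 and 3.44 in retinoic acid, 1.97, 2.92 and 3.71 in folic acid and 0.90, 2.34 and 3.32 in control. No valproic acid library overlapped the other 24, and the difference from control was 2.93 (SE 0.41).

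ACAP2, a GTPase-activating protein for Arf6 in endosome traffic, had 4.55, 6.37 and 6.97 in valproic acid, 1.79, 2.90 and 4.36 in retinoic acid, 2.22, 3.43 and 4.36 in folic acid and 0.96, 3.47 and 4.72 in control. A single control library reached above the lowest valproic acid library, and the difference was 2.76 (SE 0.45). The mitochondrial genes were sfxn4, a sideroflexin, and RHOT1, which links mitochondria to their motors. sfxn4 had 5.12, 5.90 and 6.17 in valproic acid, 2.79, 4.11 and 4.5 in retinoic acid, 1.67, 4.15 and 4.61 in folic acid and 0.20, 3.35 and 4.19 in control, so that valproic acid lay above all 24 other libraries. RHOT1 ranged from 4.19 to 5.96 in valproic acid and from 1.73 to 3.64 in control, with a difference of 2.76 (SE 0.42).

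PROM1, a glycoprotein of membrane protrusions, ranged from 3.96 to 6.80 in valproic acid and from 1.41 to 3.79 in control. ATP6V0A2, a subunit of the proton pump of endosomes and the Golgi, ranged from 4.75 to 5.83 in valproic acid and from 0.96 to 4.72 in control. These 2 groups stood just apart, while retinoic acid reached 4.89. SLC16A5, of the monocarboxylate transporter family, and CLN8, a protein of the endoplasmic reticulum, overlapped control and had differences of 1.99 (SE 0.45) and 1.66 (SE 0.47).

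Among the 7 genes of enzymes and the matrix, differences ran from 2.12 to 2.76 (median 2.47). Of the 7, 5 were free of overlap with control, against 4.04% of all genes, a count that the choice favours. gdpd4b, of the glycerophosphodiester phosphodiesterase family, had 4.58, 5.79 and 6.57 in valproic acid, 0.17, 4.18 and 5.23 in retinoic acid, 1.97, 3.24 and 5.12 in folic acid and 1.79, 3.05 and 4.18 in control. ELOVL4, which elongates very long chain fatty acids, had 4.38, 5.83 and 6.27 in valproic acid, 0.44, 2.91 and 3.46 in retinoic acid, 1.39, 3.00 and 4.06 in folic acid and 1.85, 3.05 and 3.80 in control. ELOVL4 was apart from all other libraries in valproic acid, and gdpd4b was apart from control only, with differences of 2.76 (SE 0.52) for gdpd4b and 2.62 (SE 0.45) for ELOVL4.

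B3GNT9, a glycosyltransferase, was the most even of the 54 in valproic acid, with an SD of 0.208. Its values were 5.53, 5.68 and 6.17 in valproic acid, 2.97, 4.61 and 5.59 in retinoic acid, 2.98, 4.12 and 4.83 in folic acid and 1.51, 3.52 and 4.71 in control. CHST2, a sulfotransferase that acts on carbohydrate chains, ranged from 4.68 to 5.83 in valproic acid and from 0.59 to 4.81 in control. AS3MT, which methylates arsenic, ranged from 4.72 to 5.99 in valproic acid and from 0.90 to 4.51 in control. Valproic acid cleared control for B3GNT9 and AS3MT and overlapped it for CHST2. TIMP2, an inhibitor of matrix metalloproteinases, ranged from 4.49 to 5.88 in valproic acid and from 0.90 to 4.19 in control. OAZ2, an antizyme that lowers polyamine synthesis, ranged from 3.57 to 6.07 in valproic acid and from 1.41 to 5.03 in control, with overlap.

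Differences of the 6 genes of transcription and DNA ran from 1.60 to 2.57 (median 2.09). pou2f2b, a transcription factor with a POU domain and a homeodomain, had 4.57, 5.27 and 5.76 in valproic acid, 0.90, 3.18 and 4.5 in retinoic acid, 0.71, 2.92 and 3.89 in folic acid and 0.20, 3.10 and 4.19 in control. The zinc finger gene znf219 ranged from 4.19 to 5.92 in valproic acid and from 1.51 to 3.88 in control, and ALKBH2, a DNA repair dioxygenase, from 4.91 to 5.65 in valproic acid and from 1.79 to 4.02 in control. For these 3 genes the valproic acid libraries lay above all 24 others. The gene ubn1, a subunit of a histone H3.3 chaperone, ranged from 4.60 to 5.61 in valproic acid and from 1.85 to 4.81 in control, with overlap.

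GAREM2, an adaptor of growth factor receptor signalling, belonged to the 5 genes outside these roles and had 4.11, 5.49 and 6.40 in valproic acid, 0.17, 1.21 and 3.85 in retinoic acid, 0.13, 1.77 and 2.85 in folic acid and 0.17, 1.79 and 3.66 in control. It stood apart from all other libraries, with a difference of 3.30 (SE 0.57), or 9.83-fold. The others were FAM117B, map4l, tmem176 and SGTB, a cochaperone, with differences of 1.81 to 2.93 (SE 0.49 to 0.55). The values of map4l were the most uneven of these in valproic acid, at 4.04, 4.65 and 7.32, against 2.16, 3.12 and 5.10 in control. The 12 genes with a clone name or none had differences of 1.58 to 3.63, and 4 of them (against 4.04% of all genes) were free of overlap with control. One of them, zgc:194398, singled out after its values were seen, had 5.95, 6.56 and 7.57 in valproic acid, 0.90, 2.86 and 4.03 in retinoic acid, 1.73, 2.97 and 4.04 in folic acid and 0.90, 3.17 and 4.75 in control.

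The limits that define the set cut through a continuous range. The nearest genes are given here among those with a gene name, leaving out clone names and identifiers without a name. Nearest inside the control limit were ubn1 at just under 3.5, ANK3 at 3.48 and CLN8 at 3.44, and nearest outside it, among genes that met the other limits, were ghrb at 3.52 and TFPI at 3.53. At the folic acid limit, B3GNT9 at 3.94, OAZ2 at 3.86 and CLN8 at 3.72 lay inside and STMN1 at 4.12 outside. At the valproic acid limit, PPP2R2C at just over 5, SPON1 at 5.02 and ANK3 at 5.04 lay inside, and dhrs11b.1 at 4.97, rab11bb at 4.97 and ITGB4 at 4.96 outside.

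The 54 were the upper end of a larger group of low genes. In all, 651 genes met both low limits, whatever their valproic acid level, and the 54 were 8.29% of them. A further 182 of the 651 had a valproic acid mean of 4 or more but under 5, and 415 stayed below 4. Over the 651 genes, the median of the means was 3.68 in valproic acid, 3.26 in retinoic acid, 3.24 in folic acid and 3.09 in control, and 168 (25.8%) were called higher and 6 (0.922%) lower in valproic acid than in control, against 15.9% and 15.4% of all genes. Because the 651 were chosen for low control and folic acid means, a shift upward relative to control is part of each comparison. Genes this low in control also have little room to be called lower. The gene filter was not given, so genes kept only through their valproic acid values cannot be told apart. Nothing is therefore read from the shares called higher and lower. The median difference from control was 0.66 in valproic acid, 0.23 in retinoic acid and 0.23 in folic acid. A case in the other direction, a mean of 5 or more in control and in folic acid and below 3.5 in valproic acid, held for 22 of all 15710 genes. Its limits are not the exact reverse of those of the choice, and the genes low in valproic acid were not counted. The 22 are therefore not compared with the 54.

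**Figure D4:**
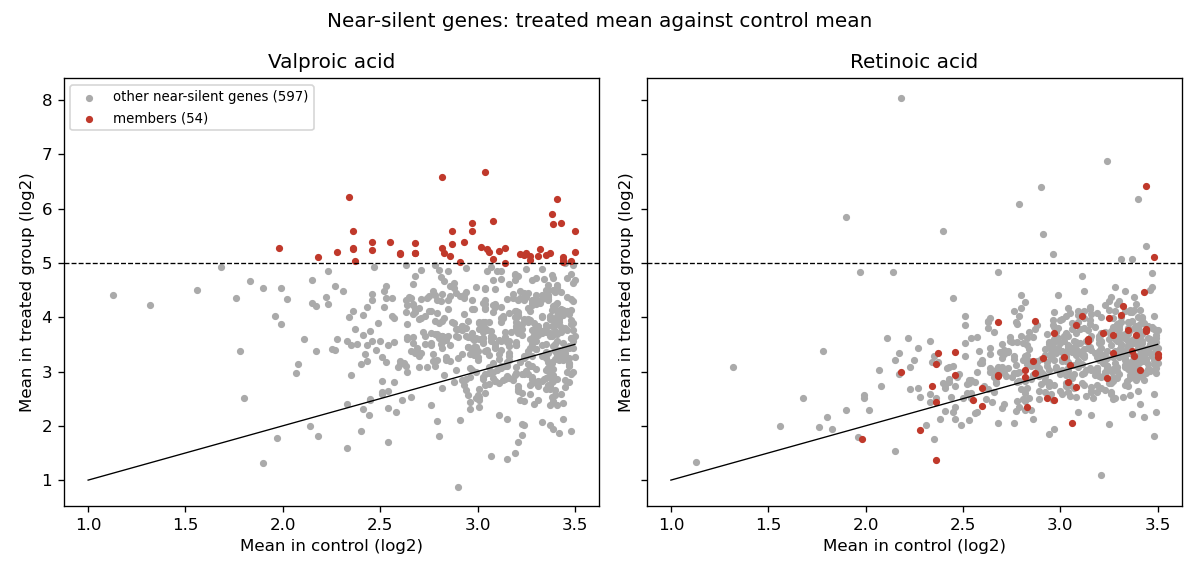
Mean log2 value in valproic acid (left panel) and in retinoic acid (right panel) against the mean in control for the 651 genes under both low limits, with the 54 chosen genes in red, a solid line of equal values and a dashed line at 5. In valproic acid 54 genes reach the dashed line, by the choice, and in retinoic acid 14 genes reach it, of which 2 are among the 54.

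In retinoic acid, the other teratogen of the series, the median gene of the 54 lay near its control level, though single genes rested on few reads. CHST2, at 2.37-fold of control (limma adjusted p = 0.61), was not called, so a missing call does not show an unchanged level. In retinoic acid against control, 1 of the 54 was called higher (limma adjusted p under 0.05), against 0.592% of all genes, and 0 were called lower, against 0.14% of all genes. At an unadjusted p under 0.05 there were 6. The median difference was 0.27, or 1.21-fold, with 37 of 54 above 0, and the control side had been chosen low. Folic acid minus control, with both sides chosen low, had a median of 0.16, and 0 of the 54 were called, with 1 at an unadjusted p under 0.05. In retinoic acid against valproic acid, where the valproic acid side was chosen high, 48 of the 54 were called lower, against 15.5% of all genes, and 1 was called higher, against 14.5% of all genes. The median difference of retinoic acid minus valproic acid was -2.07.

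The gene called higher in retinoic acid was ripply3, a co-repressor that acts with T-box factors and is needed for pharyngeal development. Its values were 2.91, 5.31 and 5.72 in valproic acid, 5.53, 6.27 and 7.62 in retinoic acid, 0.90, 3.82 and 4.81 in folic acid and 0.59, 3.51 and 5.61 in control. A single control library reached into the retinoic acid range, and valproic acid overlapped control as well. The estimated reads over 8 libraries were 195 in valproic acid, 410 in retinoic acid, 57 in folic acid and 76 in control. Retinoic acid exceeded control by 2.97 (SE 0.53, limma adjusted p = 0.00099), or 7.83-fold, and the call held in each of 43 fits, with adjusted p from 0.00021 to 0.035. Retinoic acid exceeded valproic acid by 1.36 (adjusted p = 0.049).

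ANK3 stood at like levels in both teratogen groups. Its values were 4.19, 5.15 and 5.46 in valproic acid, 4.21, 5.35 and 5.70 in retinoic acid, 0.17, 2.99 and 4.06 in folic acid and 2.17, 3.56 and 4.67 in control. The retinoic acid and valproic acid ranges nearly coincided, and the means differed by 0.06. Retinoic acid minus control was 1.61 (SE 0.43, limma adjusted p = 0.083), which missed the threshold. With the sets of title numbers described below as a block, the adjusted p was 0.039, without folic acid replicate 1 it was 0.023 and without control replicate 5 it came just under 0.05, and over 43 fits it lay between 0.023 and 0.8. Against folic acid, where this gene was chosen low, retinoic acid was higher by 2.44 (adjusted p = 0.00082), and ANK3 and ripply3 were the 2 of 54 genes called higher in that comparison, against 0.662% of all genes. Apart from these, the highest retinoic acid means of named genes were 4.46 ± 0.966 for B3GNT9, 4.04 ± 0.753 for SGTB, 3.93 ± 1.22 for AS3MT and 3.92 ± 1.19 for CHST2 (SD, n = 8), and none of these 4 was called against control.

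The titles carry numbers up to 48, and each run of 12 numbers holds 2 libraries of every group, though the labels do not say what the numbers stand for. The choice of genes used the means over all of these sets, which favours a difference above 0 in each. The counts by set are therefore a description. Valproic acid minus control was above 0 in all 4 of these sets for 53 of the 54 genes and above 1 in all of them for 38. The median difference was 2.53, 2.34, 2.26 and 2.59 in the sets in order of their numbers. The exception was ripply3, with -0.62 in the set of numbers 13 to 24, where valproic acid averaged 4.08 and control 4.70, and 3.88 in the set of numbers 1 to 12, where valproic acid averaged 5.45 and control 1.57.

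Whether the size of the difference depended on the set was tested with a moderated F in limma over the group by set means. This called 0 of the 54 genes, against 1.98% of all genes, and 0 also without the intensity trend. At an unadjusted p under 0.05 there were 3 (DPYSL4, ripply3 and ANK3), and the smallest adjusted p was 0.14. With 2 libraries per group and set and few reads, this test could miss such dependence, so nothing is read from the 0. For DPYSL4 the difference was 5.13 in the first set, where control averaged 0.38, and 0.90 in the second, where control averaged 4.10. A shift between sets, averaged over the 4 groups, was called for 5 of the 54 genes, against 30.2% of all genes. Such a call does not show that every group shared the shift. In this moderated F test 12 of the 54 had an unadjusted p under 0.05. The 54 rest on few reads, so the test could miss shifts in them, and nothing is read from the lower share. For hpca (adjusted p = 0.0035) the last set minus the first was -1.31, with means of 5.17 in valproic acid, 1.46 in retinoic acid, 1.71 in folic acid and 2.59 in control in that set. The others were ENSDARG00000107506 (adjusted p = 0.021), DPYSL5 (0.023), ACAP2 (0.042) and B3GNT9 (0.049). ENSDARG00000107506, which has no name, averaged 2.47 in valproic acid in the first set and 6.01, 5.93 and 5.74 in the other sets, the widest spread of the 54 within valproic acid.

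Zebrafish keep many genes as duplicated pairs, and for 13 of the named genes the table holds a second gene of the same name, ignoring the letter that marks a paralog. These second genes did not enter the choice. Their control means lay between 4.89 and 9.79, so all 13 were above the limit that the chosen genes had to stay under. Of the 13, 4 were called higher and 0 lower in valproic acid than in control, and 9 were not called, against 15.9% and 15.4% of all genes called higher and lower. Their differences ran from -0.62 to 1.26, with a median of 0.19. The chosen gene had the larger difference in all 13 pairs, which its choice favours.

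The second RAC3 gene (ENSDARG00000090062) averaged 7.5 ± 0.377 in valproic acid, 6.15 ± 0.402 in retinoic acid, 6.45 ± 0.377 in folic acid and 6.24 ± 0.457 in control, a difference from control of 1.26 (SE 0.21, limma adjusted p = 1.7e-05). RAC3 was thus the pair in which both genes were higher by more than 2-fold. The second ELOVL4 gene was higher by 0.86 (SE 0.31, adjusted p = 0.033), the second ATP6V0A2 gene by 0.47 (SE 0.11, adjusted p = 0.0014) and the second RHOT1 gene by 0.25 (SE 0.09, adjusted p = 0.037). The second ACAP2 gene averaged 7.56 ± 0.514 in valproic acid and 8.01 ± 0.317 in control, and the second TIMP2 gene 5.59 ± 0.619 in valproic acid and 6.21 ± 0.461 in control (SD, n = 8 each), neither of them called. Where the copies of a pair are nearly identical, counting may drop their common reads or give them to the wrong copy, and such values are uncertain.

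**Figure D5:**
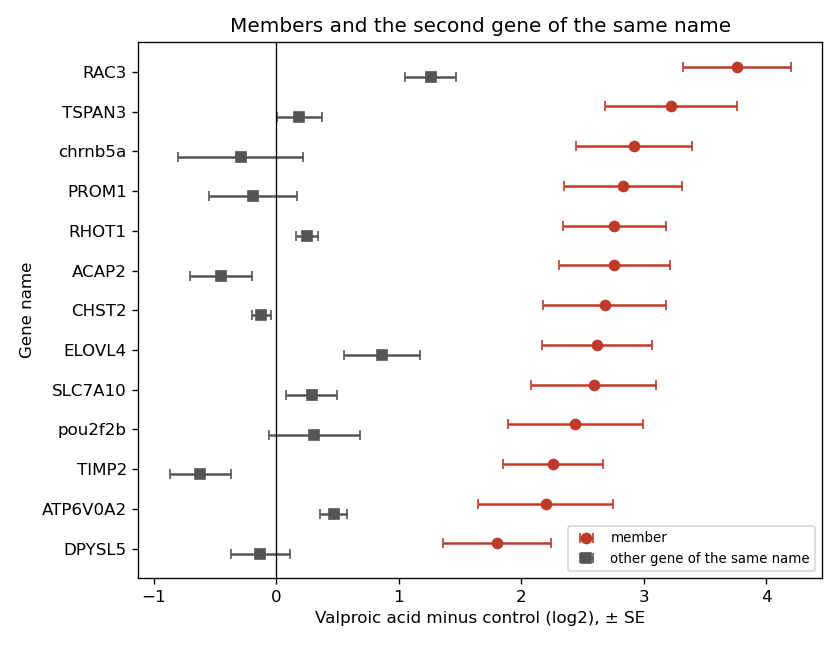
Difference between valproic acid and control (log2, with its SE) for 13 of the chosen genes (red circles) and the second gene of the same name, ignoring the paralog letter (grey squares). The second genes run from -0.62 to 1.26, and the chosen genes, picked for a large difference, lie to the right of them in all 13 pairs.

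Lists of genes of differentiated tissues and of gene families were set beside the 54, which are 0.344% of all genes. Only genes under both low limits could be among the 54, and a list held 0 to 17 of them. With so few, nothing is read from the 0, 1 or 2 members of a list. Of 40 measured genes of neurons and synapses, 1 (basp1) is among the 54, and 10 (25%) were called higher and 2 (5%) lower in valproic acid than in control, against 15.9% and 15.4% of all genes. Beside basp1, those higher included SNAP91, a clathrin adaptor of synaptic vesicles (7.39 in valproic acid and 3.79 in control, difference 3.59, SE 0.40, adjusted p = 3.6e-08), the vesicle protein sypb (8.25 in valproic acid and 6.08 in control, difference 2.17, SE 0.27, adjusted p = 1.8e-07) and ELAVL3, an RNA-binding protein of early neurons (6.99 in valproic acid and 5.90 in control, difference 1.1, SE 0.38, adjusted p = 0.024). The 2 that were lower were one of the STMN4 genes (ENSDARG00000043932) with a difference of -1.61 and one of the CELF3 genes (ENSDARG00000034668) with -0.48. Averaged over the 40 genes, a library lay between 5.96 and 6.27 in valproic acid and between 5.48 and 5.72 in control. Only 3 of the 40 had a control mean under 3.5, and the part of this shift in the values of the 15 neuronal genes was not tested.

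Among 25 muscle genes, 0 were members, 0 were called higher and 6 (24%) lower, and among 21 genes of liver, gut and pancreas 0 were members, 0 were higher and 9 (42.9%) lower. Of 44 genes of skeleton and matrix, 1 (TIMP2) is a member, with 5 (11.4%) called higher and 6 (13.6%) lower. Blood and vessel genes (16 measured), eye genes (16), germ line genes (36) and immune genes (27) held 0 members. In the same order, 1, 1, 5 and 6 were called higher (6.25%, 6.25%, 13.9% and 22.2%) and 3, 1, 1 and 3 lower (18.8%, 6.25%, 2.78% and 11.1%). Few genes of these tissues met both low limits and could be members. They were 1 of muscle, 2 of liver, gut and pancreas and 4 of skeleton and matrix. There were 0 of blood and vessel, 1 of eye, 2 of germ line and 3 of immune genes. Nothing is read from the 0 members of these lists. Averaged over the 25 muscle genes, a library lay between 6.18 and 6.78 in valproic acid and between 6.78 and 7.08 in control.

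By family, the 54 genes included 2 of 265 solute carriers (SLC7A10 and SLC16A5), 1 of 32 neurotransmitter receptors (chrnb5a) and 1 of 103 homeobox genes (pou2f2b). Among all homeobox genes, 2 (1.94%) were called higher, pou2f2b and pou2f3, and 46 (44.7%) lower, against 15.9% and 15.4% of all genes. The bHLH, Fox, Sox, T-box and GATA genes (96 measured) held 0 members, with 8 (8.33%) called higher and 45 (46.9%) lower. Ion channels (75 measured) held 0 members, with 14 (18.7%) called higher and 8 (10.7%) lower. Of 53 genes known from other work to respond to histone deacetylase inhibitors, 0 were among the 54. Only 1 of the 53 met both low limits and could be chosen, so nothing is read from that 0. Of the 53, 8 (15.1%) were called higher and 10 (18.9%) lower, shares near those of all genes. The gene that met both low limits was BDNF, a neuronal growth factor, which was called higher. It reached 4.33 in valproic acid, under the limit of 5, with 2.71 in control (difference 1.62, SE 0.56, limma adjusted p = 0.026).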

How the data were processed

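The authors deposited a table of normalized log2 values with 15710 Ensembl gene rows and a column for each of the 32 libraries. The submitters' processing notes name HTSeq 0.11.0, limma and GRCz11. Aligner, gene filter and normalization were not given in the sources used here. Deposited log2 values ran from 0 to 19.4 with nearly the same distribution in every library, so a change in total RNA would not be seen. The members and lists were chosen with earlier results of these data known.

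Differences were fitted with limma 3.58.1 in R 4.3.3, using 1 coefficient for each group over the 32 libraries, moderated variances that follow intensity and p-values adjusted over all genes by Benjamini-Hochberg, calling genes at an adjusted p under 0.05. Title-number sets were tested with moderated F tests, as added terms and as an interaction. Estimated reads are step numbers of the distinct low values of a library (tolerance 1e-06). The limma fit was also run on simulated data, and as its outcome is not given here, nothing is read from it. Tables and figures used Python 3.11.15, pandas 2.3.3 and matplotlib 3.10.9. No 2 libraries held identical values. The design's branch for log2 values was used without a pseudocount or a filter.

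Named genes were the 15 highest by valproic acid mean, the 6 highest by retinoic acid mean, the 6 with the largest valproic acid SD, list members, genes with a set term and those nearest the limits, 31 in all, and most other named members were added for completeness. Names were found for 15016 of 15710 identifiers. Of the 54 members, 29 (53.7%) matched a gene table by symbol, under the 80% needed, so their positions were not used, and no sequences are given. Another identifier that meets the limits, and some genes that the rules take, are not reported here.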

Additional observations from a re-analysis of the deposited data

Results flagged for a closer look

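For each of the 31 genes that the naming rule took, the 8 values of each of the 4 groups were searched for a library far from the rest, by Dixon's ratio of the gap to the range at its 95% critical value. Of 124 groups examined, 12 held such a library. For normally distributed values chance flags about 1 in 20 groups. Low values here fall on steps of few reads, so that rate gives no expected number for them. All 12 lay on the low side of their group.

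In valproic acid there was 1 case. Replicate 3 had a ripply3 value of 2.91, with the next library at 4.58 and 5 estimated reads. In retinoic acid, basp1 in replicate 5 was 0.17 with the next library at 2.22, and gdpd4b in replicate 8 was 0.17 with the next library at 3.23.

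In folic acid there were 7. DPYSL4 was 1.67 in replicate 8 (next 3.64), OAZ2 was 2.98 in replicate 7 (next 3.71), map4l was 1.75 in replicate 7 (next 3.63) and TSPAN3 was 0.17 in replicate 1 (next 2.57). The values of basp1 and ripply3 in replicate 2 were 0.13 (next 1.62) and 0.90 (next 3.09), and prrt2 in replicate 3 was 1.79 (next 2.85). Folic acid replicates 7 and 8 had the least relative depth of the 32 libraries, with 12 and 13 reads at the lower-quartile gene. In control, pou2f2b and sfxn4 in replicate 5 were both 0.20, with the next library at 2.37 for each. Outside valproic acid, these values stand for 0 or 1 estimated reads.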

How the results depend on the processing

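The number of genes that meet the limits depends on them: 6 with each limit stricter by 0.5, 246 with each looser by 0.5, 41 with medians in place of means (36 shared with the 54), 53 after median centring and 50 to 59 when 1 library is left out. The median difference between valproic acid and control over the 54 was 2.27 to 2.49 without 1 library, with 53 or 54 called, and 52 were called when the 2 libraries that share a group and a set were averaged, where ANK3 and ripply3 lost the call. Retinoic acid against control called 2 of the 54 with a block for the title-number sets and 1 to 2 without 1 library (2 without folic acid replicate 1 or control replicate 5), and retinoic acid against valproic acid called 44 to 49 of the 54 in either direction when 1 library was left out. The count called between sets ran from 3 to 8 without 1 library, with 8 without control replicate 1. The set dependence of the difference called 0 throughout, from which nothing is read. Added after seeing the data, the fit on estimated reads kept 54 called and leaving out a set kept 50 to 53. Of all 15710 genes, 1898 to 2139 were called higher when a set was left out. The 54 were chosen on valproic acid against control in these same libraries. Their counts of calls in that contrast are therefore favoured in every fit, and nothing is read from them. Over the 6359 low genes that the fit on estimated reads could use, it called 680 higher and 617 lower, against 850 and 689 from deposited values. Low read numbers limit most values outside valproic acid, with ripply3 and ANK3 in retinoic acid (410 and 164 estimated reads over the group) as exceptions.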

Other observations

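Retinoic acid brought another group of the low genes to a mean of 5 or more. Of the 651 genes under both low limits, 14 reached it in retinoic acid, and 2 of these, ripply3 and ANK3, are among the 54. Among the others were 5 Hox genes, which pattern the body axis: HOXA3 averaged 8.04 in retinoic acid, 1.82 in valproic acid and 2.18 in control, hoxc1a 6.87, 2.01 and 3.24, HOXD4 5.84, 1.32 and 1.90, hoxb6b 5.58, 1.90 and 2.40, and HOXB5 5.54, 2.11 and 2.91 in the same groups. HAND2, a transcription factor of heart and limb development, averaged 6.08 in retinoic acid, 2.09 in valproic acid and 2.79 in control. These means chose the genes, so they are a description. Over the 651 genes, 10 (1.54%) were called higher and 1 (0.154%) lower in retinoic acid than in control, against 0.592% and 0.14% of all genes, and their control side was chosen low.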
